A study of Mus musculus with 12 samples.

Results

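The mitosis genes are 57 genes listed by name whose products drive, guard or carry out cell division. They comprise mitotic cyclins and kinases, the spindle checkpoint, the chromosomal passenger complex, regulators of anaphase, kinetochore proteins, spindle motors, the cytokinesis machinery, and condensin with the division markers *Mki67* and *Top2a*. Of the 57 names, 56 had a row of their own among the 36186 rows of the expression table, and Foxm1-like had none. *Plk1* stayed below the filter on low values, which asked for 5 NRPKM or more in 3 or more libraries, so 55 were among the 10936 genes tested. NRPKM is the authors' RPKM, a read count scaled to transcript length and library size, after their further normalization between libraries.

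The 12 RNA-Seq libraries were made from cells that laser capture microdissection had taken from the mouse forelimb zeugopod at E15.5. The zeugopod is the segment of the radius and ulna. The study describes the captured cells of both genotypes as mainly chondrocytes, with some perichondrial cells. There were 3 libraries from each of 4 groups on a mixed 129/CD-1 background. The WT groups were the resting, proliferative and hypertrophic compartments of the growth plate, and the labels call the last one hyperproliferative. The mutant, *aadd*, was homozygous for frameshifts engineered in the first exons of 6 genes, *Hoxa9,10,11* in 1 cluster and *Hoxd9,10,11* in another. The labels give the *aadd* libraries as resting, while the study describes them as the whole chondrocyte population of an element without compartments. Levels of *Col10a1*, the collagen of hypertrophic cartilage, ran from 1.86 to 5.79 NRPKM in WT resting and from 43.5 to 111 in WT proliferative. They ran from 166 to 264 in WT hypertrophic and from 3.93 to 4.39 in *aadd*.

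Growth plate cartilage lengthens because resting cells supply a proliferative zone in which chondrocytes divide in columns before they leave the cell cycle and enlarge as hypertrophic cells. Most mitosis genes are transcribed in late S phase, G2 and M phase, so tissue with more dividing cells carries more of their RNA. Their promoters are known for CCAAT boxes, bound by NF-Y, and for the cell cycle homology element, bound by MuvB complexes that act with FOXM1 and MYBL2 in dividing cells and with the Rb family relatives in resting cells.

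The upstream stretches that hold these elements are shown for some of the members that have both, and the list of names used no sequence. RefSeq promoters of GRCm38.p6 were searched on both strands over the 250 bases before the start for CCAAT and for TTTGAA, and 47 of the 56 members had a promoter in the table. CCAAT was present in 33 of the 47, or 70.2%, against 37.5% of 27025 genes, and at least 2 copies were present in 46.8% against 11.5%. TTTGAA was present in 36.2% of members against 18.3% of genes. Both stood together in 15 members, 31.9%, against 6.45% of genes. When the variant TTCGAA, then the variant TTTAAA and then the variant CTTGAA were counted along with it, 59.6% of members and 37.5% of genes held at least 1 of the 4 forms. A match of letters is a description and not a bound site. In 6 of the role groups 1 member is printed, the one with the highest mean level among those that held both motifs, and *Ncapd2* and *Espl1* were added after their values were seen, because the comparison of WT hypertrophic with WT resting turns on them. Each stretch runs 5′ to 3′ on the strand of its gene, from 10 bases before the first match to 10 bases after the last, and capitals mark matches, with CCAAT read as ATTGG on the other strand and with TTTGAA read there as TTCAAA. In *Ube2c* a CCAAT and an ATTGG overlap.
Ube2c, anaphase and mitotic exit, chr2:164769691-164769915, plus strand: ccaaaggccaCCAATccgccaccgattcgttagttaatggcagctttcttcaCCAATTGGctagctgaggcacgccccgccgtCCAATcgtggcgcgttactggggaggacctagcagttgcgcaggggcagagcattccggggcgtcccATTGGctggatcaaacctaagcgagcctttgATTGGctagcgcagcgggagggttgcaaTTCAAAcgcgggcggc
Mki67, condensin and chromosome, chr7:135716462-135716577, minus strand: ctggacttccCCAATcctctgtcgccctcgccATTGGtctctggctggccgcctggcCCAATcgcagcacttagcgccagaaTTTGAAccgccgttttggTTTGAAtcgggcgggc
Bub3, spindle checkpoint, chr7:131560286-131560352, plus strand: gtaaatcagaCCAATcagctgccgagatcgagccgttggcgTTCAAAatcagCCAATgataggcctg
Ccnb2, mitotic cyclins and kinases, chr9:70421561-70421731, minus strand: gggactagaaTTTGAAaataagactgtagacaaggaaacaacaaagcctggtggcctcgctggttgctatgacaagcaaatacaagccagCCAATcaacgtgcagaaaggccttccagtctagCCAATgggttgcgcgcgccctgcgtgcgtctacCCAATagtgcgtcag
Kif11, spindle and motors, chr19:37376327-37376378, plus strand: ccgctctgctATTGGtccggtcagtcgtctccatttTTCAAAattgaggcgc
Prc1, cytokinesis, chr7:80294404-80294461, plus strand: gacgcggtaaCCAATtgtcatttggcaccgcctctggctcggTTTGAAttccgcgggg
Ncapd2, condensin and chromosome, chr6:125191620-125191773, minus strand: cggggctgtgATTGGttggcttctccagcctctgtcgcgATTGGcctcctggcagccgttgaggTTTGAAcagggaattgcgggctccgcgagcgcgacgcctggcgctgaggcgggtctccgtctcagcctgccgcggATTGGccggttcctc
Espl1, anaphase and mitotic exit, chr15:102296239-102296281, plus strand: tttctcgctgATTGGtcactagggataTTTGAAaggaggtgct
The members printed differ in the number of CCAAT boxes, from 1 in *Kif11*, *Prc1* and *Espl1* to 6 in *Ube2c*. *Mki67* holds 2 copies of TTTGAA and each of the others 1. Among the members tested, those with both motifs had a median log2 difference of -0.39 between WT hypertrophic and WT resting, and the remaining 31 with a promoter had -0.46.

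NRPKM is a value per length, so levels were compared between genes on it. The mean over the 12 libraries ran from 2.58 NRPKM for *Plk1*, a kinase of mitotic entry and spindle assembly, to 123 NRPKM for *Ube2c*, the ubiquitin-conjugating enzyme of the anaphase-promoting complex. In all 12 libraries 50 of the 56 members had at least 5 NRPKM, and the ratio of the highest to the lowest library had a median of 2.24. It was smallest for *Smc4*, a condensin ATPase, at 1.55, and largest for *Espl1*, separase, at 6.19. The mean of WT hypertrophic was the lowest of the 4 groups for 46 of the 56 members and the highest for none. The mean of *aadd* was highest for 27 members, that of WT resting for 18 and that of WT proliferative for 11.

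**Figure D1:**
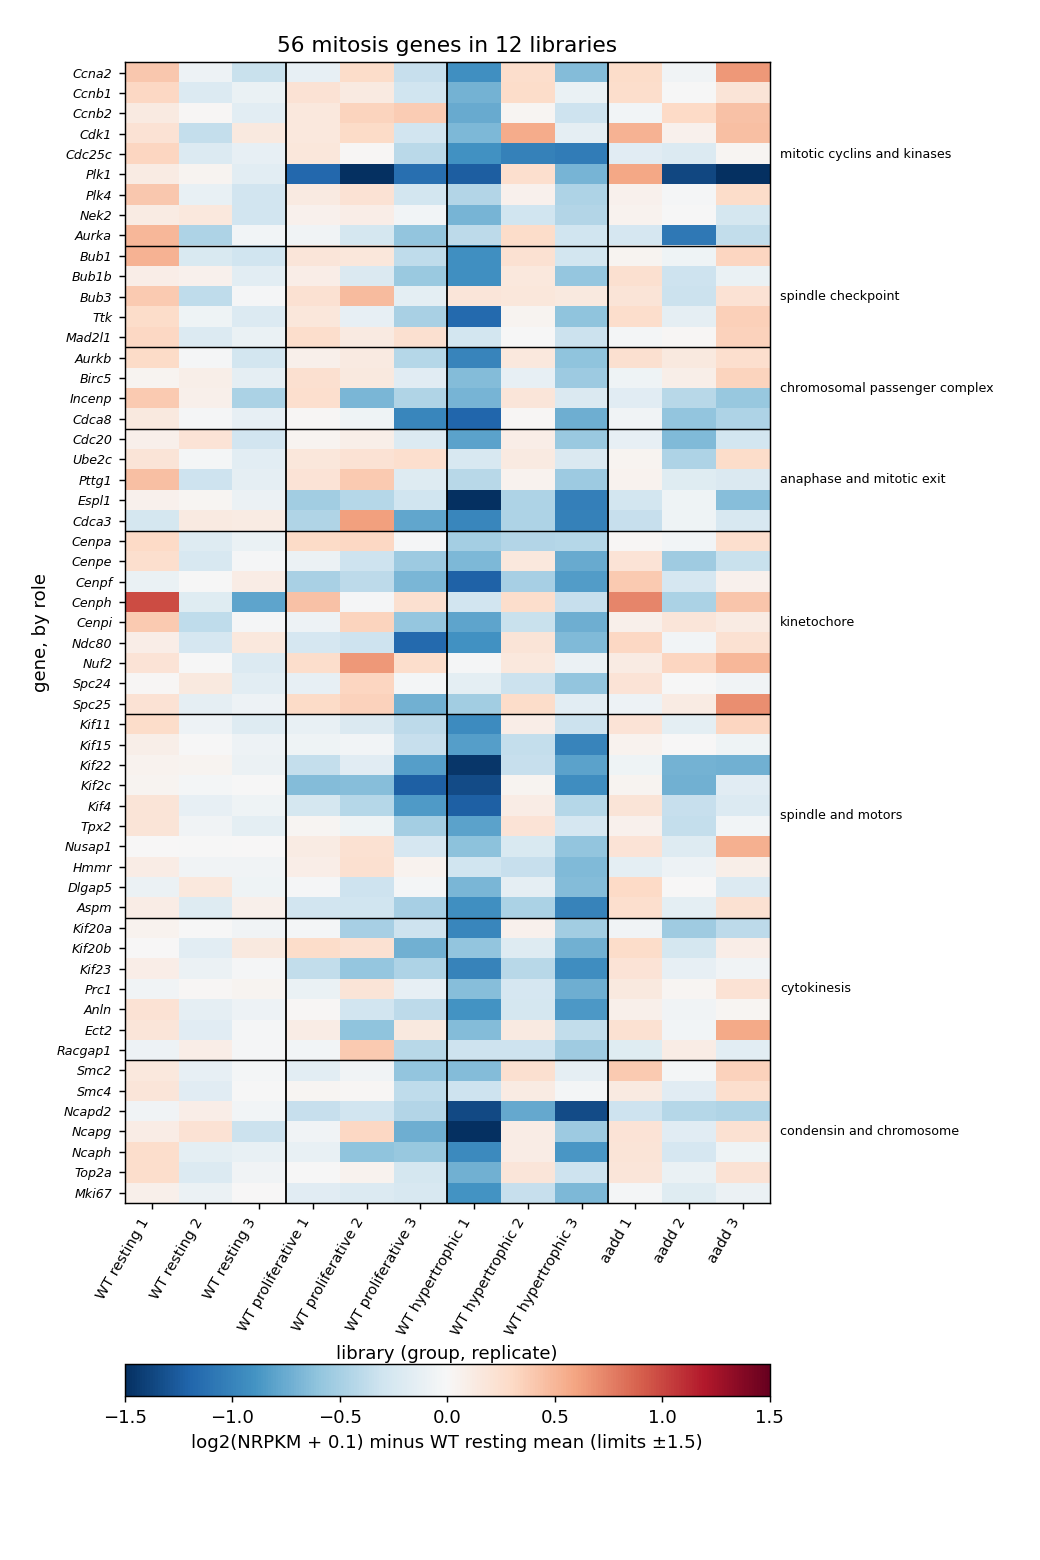
Heat map of the 56 mitosis genes (rows, by role) in the 12 libraries (columns, by group and replicate), coloured by log2(NRPKM + 0.1) minus the mean of the WT resting libraries, with the scale ending at -1.5 and 1.5. Hypertrophic replicate 1 is blue in most rows, hypertrophic replicate 2 is near white in most, and the WT proliferative and *aadd* columns are mixed.

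The 3 WT hypertrophic libraries did not behave alike and are given apart. Replicate 1 summed to 938 NRPKM over the 56 members, replicate 2 to 1452 and replicate 3 to 1057. The WT resting libraries summed to 1381 to 1682, the WT proliferative ones to 1237 to 1535 and the *aadd* ones to 1323 to 1613. Replicates 1 and 3 thus lay below every other library, and replicate 2 lay among them. Replicate 1 was the lowest of all 12 libraries for 34 members and replicate 3 for 13. Replicate 1 was below all 3 WT resting libraries for 51 of 56 members, where 35.9% of all genes tested were. Replicate 3 was below them for 47, against 38.7% of genes tested, and replicate 2 for 20, against 35.8%. Replicate 2 was above all 3 for 8 members, where 36.8% of genes tested were, and replicates 1 and 3 for none, where 29.4% and 31.9% were.

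The ratio of replicate 2 to replicate 1 had a median of 1.62 over the members and exceeded 1 for 51 of 56, against a median of 1.05 over all genes tested. The ratio of replicate 2 to replicate 3 had a median of 1.43 and exceeded 1 for 55, again against 1.05. *Espl1* showed the widest gap, with 1.83 NRPKM in replicate 1, 7.84 in replicate 2 and 5.29 in replicate 3. At the other end, *Bub3* stood at 40.4, 40.1 and 39.5 NRPKM, and *Cdc25c* at 8.93, 8.30 and 8.11.

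Other cell types and depth moved with these libraries. The summed level of 10 endothelial genes was 23.3 NRPKM in hypertrophic replicate 1, 303 in replicate 2 and 222 in replicate 3, and 9.63 to 56.9 in the other 9 libraries. The 10 osteoclast genes summed to 70.3, 1308 and 963 NRPKM, against 40.9 to 70.4 elsewhere, and 10 macrophage genes to 24.3, 287 and 231, against 12.998 to 46.1, with *C1qa* at or near 0 throughout. The 9 erythroid genes with a row summed to 129, 451 and 482, against 63.3 to 217. The 10 chondrocyte genes were lower in replicate 2, at 691 NRPKM, and in replicate 3, at 999.8, than in replicate 1, at 3038. The osteoblast genes summed to 933, 1360 and 2020, against 131 to 775 elsewhere, and the hypertrophic chondrocyte genes to 1808, 3567 and 3907, against 66.7 to 956. Estimated depth was 2340000 reads in replicate 1, 3240000 in replicate 2 and 2980000 in replicate 3, within 1890000 to 3240000 over all libraries. Of the single-exon receptor genes behind that estimate, 516 were above 0 in replicate 1, the most of any library. The counts were 172 in replicate 2, 110 in replicate 3 and 139 to 509 in the other 9 libraries. Replicate 2, with the highest mitosis genes of the group, thus also had the most marker RNA of endothelium, osteoclasts and macrophages and the greatest depth, while the osteoblast, erythroid and hypertrophic chondrocyte sums were highest in replicate 3. The perichondrium and tendon genes summed to 271, 572 and 650 NRPKM in WT resting and 224, 249 and 539 in WT proliferative. Their sums were 163, 323 and 341 in WT hypertrophic and 538, 883 and 499 in *aadd*. Resting replicate 1 had the lowest such sum of its group and the highest level of the group for 42 members. Hypertrophic replicate 1 also had the lowest such sum of its group, but the lowest level of the group for 40 members. The part of any of these in the levels was not tested. In bulk tissue, fewer cells of a type and less RNA per cell cannot be told apart.

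**Figure D2:**
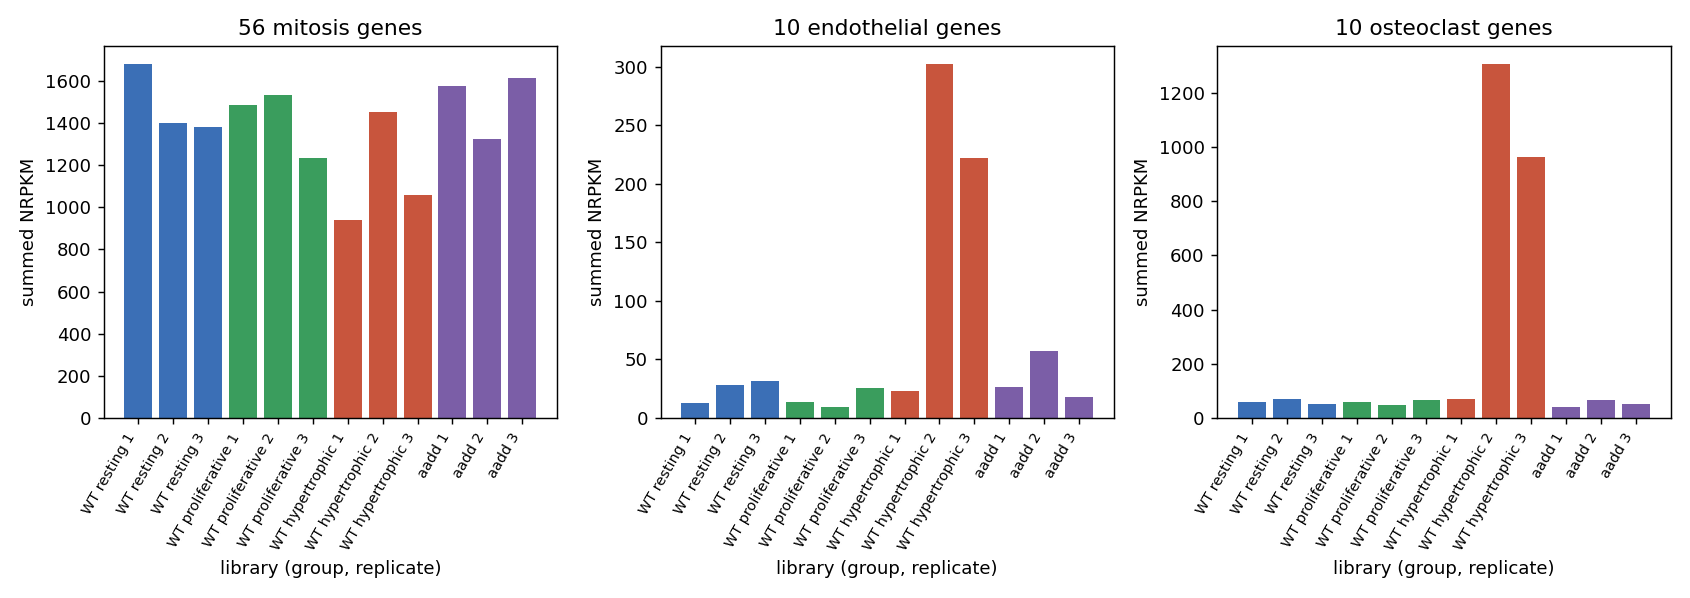
Summed NRPKM per library (bars, 1 per library, coloured by group) for the 56 mitosis genes, 10 endothelial genes and 10 osteoclast genes. Hypertrophic replicate 1 is the lowest for the mitosis genes and within the range of the other groups for the endothelial and osteoclast genes. Replicates 2 and 3 reach 303 and 222 NRPKM for the endothelial genes and 1308 and 963 for the osteoclast genes.

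The comparison of WT proliferative with WT resting asks whether division genes mark the proliferative zone. None of the 55 members tested was called, a call being an unadjusted P up to 0.05 in limma with at least a 2-fold change, where 5.53% of all genes were. At an unadjusted P up to 0.05 with any fold there were 6 members, where 17.1% of all genes passed, and at a Benjamini-Hochberg adjusted P under 0.05 there were none, where 0.622% passed. With the replicate number as a block in limma, 0 were called, where 6.14% of all genes were. In that fit 5 had an unadjusted P up to 0.05, where 20.2% did. The median log2 difference was -0.12 over the members and -0.06 over all genes tested, and 39 of the 55 members had a lower mean in WT proliferative, where 56.3% of all genes did. Without proliferative replicate 3 the median became 0.05 and 24 were lower. That library had an osteoblast sum of 775 NRPKM, against 384 and 299 in proliferative replicates 1 and 2. Its perichondrium and tendon sum was 539, against 224 and 249. Its estimated depth was the lowest of the 12, at 1890000 reads, next to 1910000 in proliferative replicate 2. The part of these in the median was not tested. The largest rise was that of *Nuf2*, a kinetochore protein, at 1.31-fold, and for 54 of the 55 members the upper end of the 95% interval of the ratio was below 2-fold. The largest fall was that of *Kif2c*, a kinesin that takes microtubules apart, with 9.41, 8.93 and 9.06 NRPKM in WT resting and 5.80, 5.81 and 3.83 in WT proliferative, a log2 difference of -0.84 (SE 0.21) with an adjusted P of 0.15 in limma. *Nuf2* and *Kif2c* were singled out after their values were seen.

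Among the cyclins and kinases, some overlapped between these compartments and some did not. *Ccna2*, cyclin A2, which acts in S phase and at mitotic entry, had 81.8, 58.5 and 48.8 NRPKM in WT resting and 56.4, 74.5 and 48.5 in WT proliferative. *Ccnb1*, cyclin B1, had 45.6, 31.7 and 34.2 against 42.8, 40.2 and 29.8. *Cdk1*, the kinase that both cyclins activate, had 20.3, 13.6 and 19.2 against 19.4, 21.3 and 14.3. The libraries of both groups overlapped for these 3 genes. The ratios were 0.96 for *Ccna2*, 1.01 for *Ccnb1* and 1.04 for *Cdk1*, with 95% intervals of 0.62 to 1.48, 0.70 to 1.47 and 0.70 to 1.54.

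*Mki67*, which encodes the Ki-67 coat protein of mitotic chromosomes, had 102, 91.5 and 97.5 NRPKM in WT resting and 86.1, 83.9 and 82.2 in WT proliferative. All 3 proliferative libraries were below all 3 resting ones, and the log2 difference of -0.20 (SE 0.14) did not pass the test, with an adjusted P of 0.50 in limma and 0.45 with the replicate block. *Top2a*, the topoisomerase that untangles sister chromatids, overlapped, with 82.4, 59.7 and 66.4 NRPKM in WT resting and 68.7, 71.6 and 57.1 in WT proliferative. The groups were apart, with every proliferative library lower, for 9 of the 55 members tested and, with every one higher, for 2, *Ccnb2* and *Nuf2*, where 14.2% and 9.83% of all genes were. *Plk1*, outside the test, was also apart, with 3.96, 3.73 and 3.23 NRPKM in WT resting and 1.54, 0.91 and 1.60 in WT proliferative, levels that rest on as few as 4 reads.

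WT hypertrophic was then compared with both other compartments, which asks how far division genes are lower where chondrocytes enlarge. Against WT proliferative, none of the 55 members was called, where 9.67% of all genes were, and none had an adjusted P under 0.05, where 0% of all genes did. In limma 2 had one in the fit on all 12 libraries, where 6.45% of all genes did, and 1 without hypertrophic replicate 1, where 17.4% did. At an unadjusted P up to 0.05 there were 8 members, all lower, where 19.3% of all genes passed. The median log2 difference was -0.37 over the members and 0.04 over all genes tested, and 48 of the 55 had a lower mean, where 46.7% of all genes did. Every hypertrophic library was below every proliferative one for 13 members, where 10.9% of all genes were so. Without hypertrophic replicate 1 the median was -0.20, with 38 lower and none called, where 18.4% of all genes were. Without replicate 2 it was -0.54, with all 55 lower and 1 called, *Espl1*, where 6.45% of all genes were. Without proliferative replicate 3 the 1 called was *Cdc25c*, where 7.87% of all genes were.

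Against WT resting, 2 members were called and both fell, where 7.2% of all genes were called lower and 13% in either direction. They were *Ncapd2*, a condensin I subunit that helps compact chromosomes, and *Espl1*, the protease that cuts cohesin at anaphase. At an adjusted P under 0.05 in limma there were also 2, *Ncapd2* and *Cdc25c*, where 6.36% of all genes were, and 17 reached an unadjusted P up to 0.05, where 26.4% of all genes did. The median log2 difference was -0.45 over the members and -0.02 over all genes, and 53 of the 55 had a lower mean, where 51.7% of all genes did. Every hypertrophic library was below every resting one for 19, where 17.8% of all genes were so. Without hypertrophic replicate 1 the median was -0.25 and the 2 called were *Ncapd2* and *Cdc25c*, where 9.83% of all genes were called lower. Without replicate 2 it was -0.66, with 6 called, namely *Cenpf*, *Espl1*, *Kif22*, *Kif2c*, *Ncapd2* and *Ncapg*, where 6.39% of all genes were called lower. Without replicate 3, where 6.07% were called lower, or without resting replicate 1, where 6.96% were, the 1 called was *Ncapd2*. The count at an adjusted P under 0.05 was 0 without any 1 of the resting libraries or hypertrophic replicate 3, where 1.43% to 3.64% of all genes passed. It was 1 without replicate 2 (1.77%), 3 without replicate 1 (24.2%) and 8 in the fit on all 12 libraries (14.7%). Both comparisons share the WT hypertrophic libraries.

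*Ncapd2* had 29.3, 32.7 and 29.5 NRPKM in WT resting, 24.0, 25.0 and 22.4 in WT proliferative, and 11.9, 17.9 and 11.98 in WT hypertrophic. No hypertrophic library reached the lowest of the other groups, replicate 2 included. It fell by 1.15 on the log2 scale (SE 0.21), or 2.22-fold, with an adjusted P of 0.035 in limma that ran from 0.0023 to 0.14 over 14 alternatives, and it was called under all 14. *Espl1* had 11.3, 11.1 and 10.2 NRPKM in WT resting, 7.52, 8.01 and 8.83 in WT proliferative, and 1.83, 7.84 and 5.29 in WT hypertrophic. Replicate 1 was lowest, and replicate 2 lay within the proliferative range. It fell by 1.33 on the log2 scale (SE 0.51), with an adjusted P of 0.16 in limma (0.053 to 0.35 over the alternatives). It was called under 8 of 14 alternatives, and without replicate 1 the difference was -0.74.

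*Cdc25c*, the phosphatase that switches on CDK1, was singled out after its values were seen, because its hypertrophic libraries were close together. It had 21.1, 14.6 and 15.46 NRPKM in WT resting, 19.0, 17.0 and 12.64 in WT proliferative, and 8.93, 8.30 and 8.11 in WT hypertrophic. All 3 hypertrophic libraries lay below every other library. Its log2 difference from WT resting was -0.99 (SE 0.20) with an adjusted P of 0.042 in limma, and the 1.98-fold decrease missed the call. That adjusted P was 0.092 with the replicate block and 0.16 without replicate 3.

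**Figure D3:**
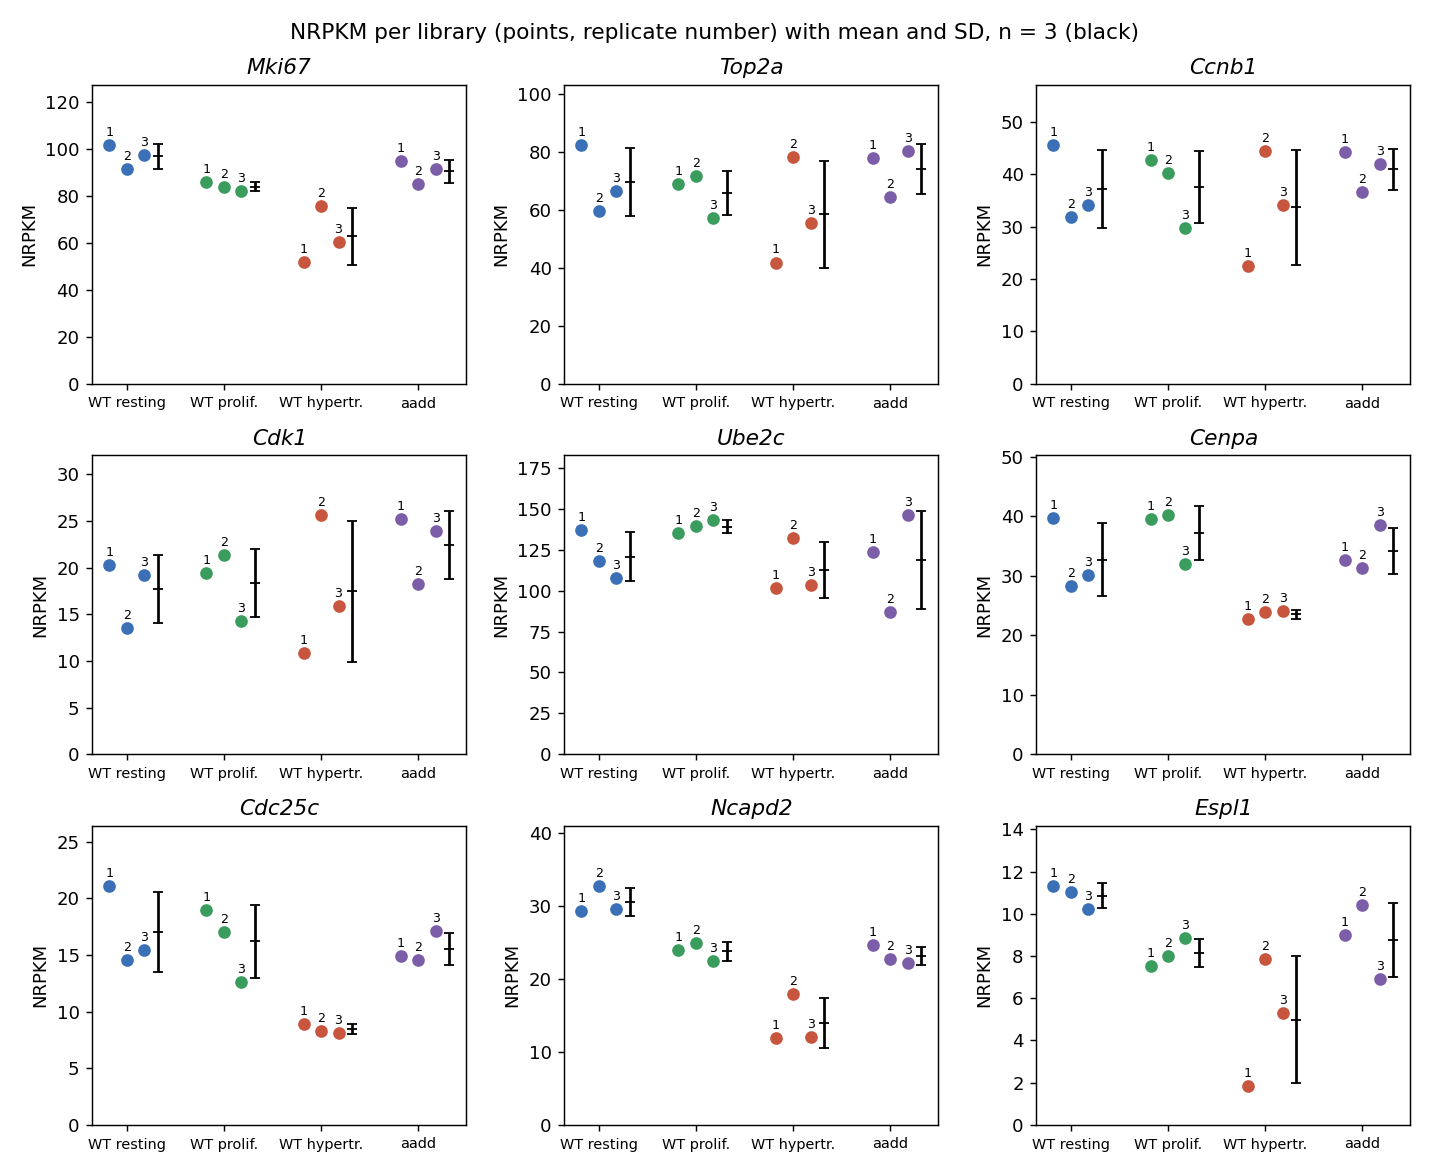
NRPKM of 9 mitosis genes by group (points are libraries, numbered by replicate; black bars are the mean and SD of 3 libraries; every axis starts at 0). Hypertrophic replicates 1, 2 and 3 lie close together for *Cenpa* and *Cdc25c* and wide apart for *Top2a*, *Ccnb1*, *Cdk1* and *Espl1*.

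The hypertrophic libraries lay below all 9 others for 8 of the 56 members, where 4.95% of all genes tested did. These were *Cdc25c*, *Nek2*, *Cenpa*, *Kif15*, *Hmmr*, *Prc1*, *Ncapd2* and *Mki67*, of which *Nek2*, *Kif15* and *Prc1* were likewise singled out after their values were seen. *Cenpa*, the histone variant that marks centromeres, had 39.8, 28.3 and 30.2 NRPKM in WT resting, 39.6, 40.2 and 32.1 in WT proliferative and 22.7, 23.9 and 24.1 in WT hypertrophic. *Hmmr*, a spindle assembly factor and hyaluronan receptor, had 44.1, 39.3 and 39.2, then 43.8, 48.4 and 42.3, then 33.1, 32.1 and 25.7. *Mki67* had 52.1, 75.9 and 60.6 in WT hypertrophic, and its log2 difference from WT resting was -0.64 (SE 0.20) with an adjusted P of 0.10 in limma. None of these 3 reached a 2-fold change.

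Each role group was also read library by library. For spindle proteins and motors, replicate 2 lay below all 3 WT resting libraries for 6 of 10 members, and replicates 1 and 3 for 10 of 10. For cytokinesis genes the counts were 5 of 7 in replicate 2 and 7 of 7 in replicates 1 and 3. For the spindle checkpoint they were 0 of 5 in replicate 2, 4 in replicate 1 and 3 in replicate 3, and for the chromosomal passenger complex 0 of 4 in replicate 2, 4 in replicate 1 and 3 in replicate 3. Kinetochore genes gave 3 of 9 in replicate 2, 6 in replicate 1 and 7 in replicate 3. Cyclins and kinases gave 2 of 9 in replicate 2, 8 in replicate 1 and 6 in replicate 3. Genes of anaphase and mitotic exit gave 2 of 5 in replicate 2 and 5 in replicates 1 and 3, and the condensin and chromosome group 2 of 7 in replicate 2, 7 in replicate 1 and 6 in replicate 3. Over all genes tested the shares were 35.8% in replicate 2, 35.9% in replicate 1 and 38.7% in replicate 3. A difference between the role groups was not tested.

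Replicate 2 took different places in *Racgap1*, *Aurkb* and *Bub3*. *Racgap1*, a subunit of the centralspindlin complex at the cleavage furrow, had 37.6, 42.7 and 39.1 NRPKM in WT resting and 32.1, 31.9 and 27.3 in WT hypertrophic, all 3 lower. *Aurkb*, the kinase of the passenger complex, had 38.4, 31.0 and 26.0 in WT resting and 15.8, 35.1 and 20.6 in WT hypertrophic. Only replicate 2 of *Aurkb* lay within the resting range. *Bub3*, a checkpoint protein, stood at 47.1, 27.5 and 35.3 in WT resting and near 40 NRPKM in every hypertrophic library, with the largest upward ratio of the comparison, 1.12 (95% interval 0.76 to 1.64).

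*Ube2c* had 137, 118 and 107 NRPKM in WT resting, 135, 139 and 143 in WT proliferative and 102, 132 and 104 in WT hypertrophic. Its hypertrophic libraries overlapped the resting ones and were below all of the proliferative ones. *Top2a* had 41.8, 78.1 and 55.3 in WT hypertrophic, *Ccnb1* 22.4, 44.4 and 34.1, *Cdk1* 10.9, 25.6 and 15.9, and *Ccna2* 32.4, 73.6 and 39.1. In each of these 4 genes replicate 1 was the lowest of all 12 libraries and replicate 2 was within or above the WT resting range. Their ratios to WT resting were 0.82, 0.88, 0.94 and 0.74, and none passed the test.

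**Figure D4:**
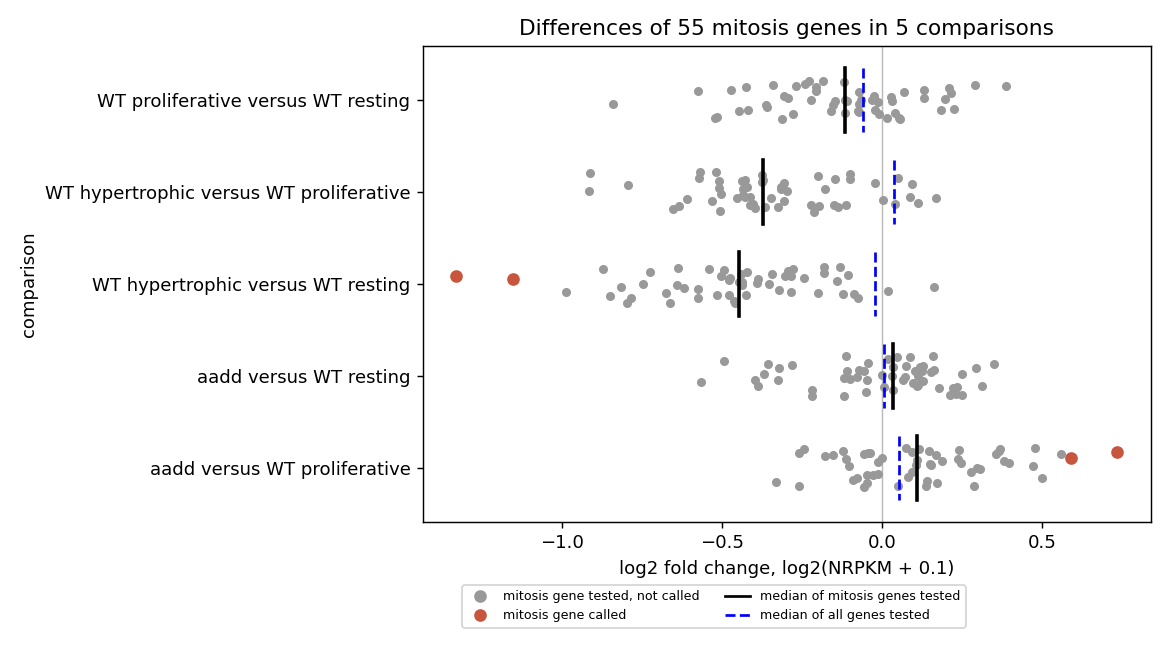
Log2 differences of the 55 mitosis genes tested (points, called ones in red) in the 5 pairwise comparisons, with the median of the members (black) and of all genes tested (dashed blue). The members' medians lie at -0.37 and -0.45 in the comparisons with WT hypertrophic and between -0.12 and 0.11 in the others.

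The *aadd* mutant was compared with WT resting and WT proliferative, which asks whether division genes differ where 6 Hox genes are lost. The *aadd* libraries were taken from the whole element and each WT group from 1 compartment, so genotype and the part captured cannot be told apart. Against WT resting, none of the 55 members was called, a call here being an unadjusted P up to 0.05 in limma with at least a 1.5-fold change, where 6.56% of all genes were. At an unadjusted P up to 0.05 there was 1, *Ncapd2*, where 9.58% of all genes passed, and none had an adjusted P under 0.05, where 0.119% did. The median log2 difference was 0.04 over the members and 0.01 over all genes. For 52 of 55 members the 95% interval of the ratio lay within 2-fold in both directions, and the largest rise was that of *Cdk1*, at 1.27-fold. Leaving out 1 library gave 0 or 1 call, namely *Aurka* without resting replicate 2, *Incenp* without resting replicate 3 and *Kif22* without *aadd* replicate 1, all lower, where 5.44%, 7.31% and 8.08% of all genes were called. The median was -0.01, -0.03 and -0.03 in these.

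*Ncapd2* had 24.6, 22.6 and 22.2 NRPKM in *aadd*, below all 3 WT resting libraries and next to the WT proliferative ones. Its log2 difference from WT resting was -0.40 (SE 0.15) with an adjusted P of 0.46 in limma. *Mki67* had 94.8, 85.2 and 91.5 NRPKM in *aadd*, *Top2a* 77.9, 64.2 and 80.1, *Ccnb1* 44.2, 36.6 and 41.9, and *Cdk1* 25.2, 18.3 and 23.9. All 4 overlapped WT resting. *Ube2c* had 124, 86.8 and 146 NRPKM, with libraries below, within and above its WT resting range.

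Against WT proliferative, 2 members were called and both rose, where 9.82% of all genes were called higher and 15.8% in either direction. The 1.5-fold threshold of the comparison with WT resting was carried over here. The 2 were *Ndc80*, which links kinetochores to microtubules, and *Cenpf*, a large kinetochore and nuclear envelope protein. At an adjusted P under 0.05 in limma there were none, where 3% of all genes passed, and 4 had an unadjusted P up to 0.05, where 19.2% did. The median log2 difference was 0.11 over the members and 0.05 over all genes. The 2 calls moved with single libraries. None was made without proliferative replicate 3 or without *aadd* replicate 1 or 3, and *Ndc80* alone was called without proliferative replicate 1. There were 3 without proliferative replicate 2, with *Smc2* added, and 5 without *aadd* replicate 2, with *Aspm*, *Kif2c* and *Smc2* added. In these 6 fits 7.77% to 12.5% of all genes were called higher. With the replicate number as a block there were 0, where 9.75% of all genes were called higher. Without proliferative replicate 3 the median was -0.02. This comparison shares the *aadd* libraries with the one before it and the WT proliferative libraries with earlier ones.

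*Ndc80* had 17.1, 13.3 and 17.7 NRPKM in WT resting, 13.4, 12.9 and 7.01 in WT proliferative, 8.41, 18.1 and 10.0 in WT hypertrophic and 19.7, 15.4 and 18.6 in *aadd*. Every *aadd* library was above every proliferative one, and proliferative replicate 3 was the lowest of the 12. It was 1.66-fold higher in *aadd* than in WT proliferative, a log2 change of 0.74 (SE 0.29) with an adjusted P of 0.23 in limma (0.17 to 0.47 over 14 alternatives). *Cenpf* had 16.5, 17.5 and 19.0 in WT resting, 12.59, 13.4 and 10.9 in WT proliferative, 7.55, 12.5 and 9.83 in WT hypertrophic and 23.2, 14.7 and 18.4 in *aadd*. It was 1.505-fold higher than in WT proliferative, a log2 change of 0.59 (SE 0.22) with an adjusted P of 0.21 in limma (0.17 to 0.47). *Cenpf* was close to its resting level in *aadd*, with a ratio of 1.05 (95% interval 0.75 to 1.47), and *Ndc80* had a ratio of 1.12 (0.82 to 1.52).

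Across all 4 groups, 6 of the 55 members had an adjusted P under 0.05 by limma's moderated F test, where 13.8% of all genes did, and 14 an unadjusted P up to 0.05, where 31% did. The 6 were *Ncapd2*, *Cdc25c*, *Aspm*, *Kif23*, *Cenpf* and *Kif15*, and *Ncapd2* had the lowest adjusted P, 0.0089. The count was 0 without hypertrophic replicate 3 and 3 without resting replicate 1 or 2 or proliferative replicate 2 or 3. It was 2 without resting replicate 3 or *aadd* replicate 1 or 3, and in the fit with the replicate block. With 1 library left out, 5.74% to 28.1% of all genes passed, and with the replicate block 11.6% did. *Ncapd2* was called under every alternative except without hypertrophic replicate 3. *Cdc25c* was lost there, without hypertrophic replicate 2 (7 calls) and without the filter on low values (1 call).

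Other genes of the pathway were read from lists of mitosis genes outside the 57 names, transcriptional regulators, the anaphase-promoting complex, cohesin, kinases and phosphatases that control mitotic entry, and DNA replication. Of 59 other mitosis genes tested, 6 fell between WT resting and WT hypertrophic, 1 fell between WT proliferative and WT hypertrophic, and 1 fell between WT resting and WT proliferative, where 7.2%, 4.34% and 2.97% of all genes were called lower. The median log2 differences were -0.47, -0.28 and -0.18. The largest fall was that of *Iqgap3*, a scaffold protein of dividing cells, from 12.9, 14.0 and 14.6 NRPKM in WT resting to 4.61, 6.06 and 4.34 in WT hypertrophic, with a log2 difference of -1.46 (SE 0.19) and an adjusted P of 0.013 in limma. *Ska1*, a kinetochore protein, fell against both, with 2.97, 4.33 and 3.53 NRPKM in WT hypertrophic and log2 differences of -1.20 from WT resting and -1.16 from WT proliferative. Hypertrophic replicates 1, 2 and 3 were all low for both genes.

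*Psrc1*, a spindle microtubule protein, fell from 26.7, 21.9 and 18.04 NRPKM in WT resting to 18.4, 8.63 and 4.96 in WT proliferative, and stood at 13.03, 11.98 and 8.85 in *aadd*. It was the 1 gene of this list called between *aadd* and WT resting, where 6.56% of all genes were. Its log2 difference was -0.97 (SE 0.23) with an adjusted P of 0.25 in limma, and no *aadd* library overlapped WT resting. Between *aadd* and WT proliferative 2 of the 59 rose and 1 fell, where 9.82% of all genes were called higher and 6.02% lower. The largest change was that of *Cenpk*, at 0.96 on the log2 scale (SE 0.33).

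In WT hypertrophic 1 of 21 regulators tested was called against WT resting (13% of all genes) and the same 1 against WT proliferative (9.67%). It was *Rb1*, the retinoblastoma protein that represses E2F targets. It rose, with 4.81, 6.61 and 6.18 NRPKM in WT resting, 11.8, 12.8 and 8.80 in WT proliferative and 32.5, 19.9 and 17.0 in WT hypertrophic. The groups did not overlap, and replicate 1 was the highest. The log2 difference was 1.92 from WT resting (SE 0.29, adjusted P of 0.019 in limma) and 1.01 from WT proliferative (SE 0.30, adjusted P of 0.18). *Foxm1* had 40.9, 34.8 and 28.4 NRPKM in WT resting and 12.8, 29.4 and 24.3 in WT hypertrophic, and *Mybl2* had 20.04, 13.2 and 10.4 against 9.15, 15.51 and 10.9. Neither was called in any of the 5 comparisons, and hypertrophic replicate 1 was the lowest of the 3 for both.

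The remaining lists held few calls, all between *aadd* and WT proliferative. In that comparison 9.82% of all genes were called higher, 6.02% lower and 15.8% in either direction. *Lin52*, a MuvB subunit, was the larger of 2 regulators that rose, at 0.69 on the log2 scale. *Anapc13* was the 1 of 14 anaphase-promoting complex genes called and fell by 0.76. *Cdc25b*, a phosphatase that activates CDK1 and 1 of 8 genes of mitotic entry, rose by 0.63, and *Mcm7*, a subunit of the replicative helicase, was the 1 of 15 DNA replication genes called and rose by 0.79. None of the 10 cohesin genes was called by limma in any pair, though 3 had an unadjusted P up to 0.05 between WT proliferative and WT resting, 1 between WT hypertrophic and WT resting and 1 between *aadd* and WT proliferative.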

How the data were processed

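RNA-Seq libraries of the laser-captured cells were made by amplification of total RNA with a NuGen kit and Nextera tagmentation. Reads of low quality, duplicates and those with several alignments were dropped by the authors, who mapped to mm10 and deposited RPKM values that they had normalized further between libraries (NRPKM). The submitters' processing notes name TopHat. The between-library scaling and the use of strand are not given in the sources used here, and a gene cannot be told from an antisense partner. The values are linear with zeros kept.

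The R 4.3.3 package limma 3.58.1 was fitted to log2(NRPKM + 0.1), and tables and plots used pandas 2.3.3, numpy 2.4.6 and matplotlib 3.10.9 under Python 3.11.15. The filter kept 10936 genes, those that reached 5 NRPKM in 3 or more libraries. A pairwise fit used the 6 libraries of its groups, without covariates, and P-values were adjusted over all genes tested by the Benjamini-Hochberg method. A call was an unadjusted P up to 0.05 with at least a 2-fold change between WT compartments or a 1.5-fold change against *aadd*. The study listed genes at 2-fold for proliferative versus resting and hypertrophic versus proliferative, and at 1.5-fold for *aadd* versus WT resting. These folds were carried over to WT hypertrophic versus WT resting and to *aadd* versus WT proliferative. The study's further test of *aadd* on pooled reads (Audic-Claverie) was not run here. All 12 libraries entered a moderated F test. Fold changes are on the log2(NRPKM + 0.1) scale, which understates those of low genes. The procedure was tested on simulated data. The libraries of a group are described as independent sets. P-values measure the spread between 3 libraries a group.

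The table gives no counts. Depth was estimated from the value that single-exon receptor genes take most often, taken as 1 read. Exon lengths then gave the number of reads per gene. On that estimate 53 of the 56 members had over 20 reads in every library. Such limits cover counting error only.

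Members and gene lists were chosen with earlier results of these data known. Members named were the highest of each role group, *Mki67*, *Top2a*, *Ccnb1*, *Cdk1*, *Aurkb*, *Cenpa* and *Bub3*, and up to 5 called members without overlap in each direction and comparison. From other lists the gene with the largest change among those called was named, with *Foxm1* and *Mybl2*. Names outside this rule are given as such or stand in a count.

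Labels number the replicates 1 to 3 in each group. After group means were subtracted, libraries that share a number correlated over genes at *r* = 0.28, 0.18 and 0.20 between WT resting and WT proliferative, which were read as paired from the data alone, and at -0.10 to 0.28 in the other pairs, which were not. The last 0.28 was between *aadd* and WT resting, so an *r* of this size does not by itself show pairing. The main fits were unpaired throughout, with the replicate block as an alternative. Alternatives were another pseudocount, no filter or a filter over the 6 libraries, median of ratios or quantile scaling, all 12 libraries in 1 fit, the replicate block, a variance trend and leaving out each library.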

Additional observations from a re-analysis of the deposited data

How the results depend on the processing

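No named member reversed its direction under any alternative where it was called, which says little, because a fit that passes the call could hardly change sign. Without the filter on low values 1 member was called between WT proliferative and WT resting (*Plk1*), where 6.48% of all genes were. There was also 1 between WT hypertrophic and WT resting (11%), 1 between *aadd* and WT proliferative (11.1%) and 1 across the 4 groups (3.93%). With quantile scaling 1 was called between WT hypertrophic and WT proliferative (*Cdc25c*), where 9.13% of all genes were. It also gave 3 between WT hypertrophic and WT resting (13.1%), 1 between *aadd* and WT proliferative (14.6%) and 11 across the 4 groups (14%). Between *aadd* and WT proliferative, a pseudocount of 1 and median of ratios scaling each left 1, *Ndc80*. With the replicate block 0 were called between *aadd* and WT proliferative (15.7% of all genes) and 2 across the 4 groups (11.6%). Between WT hypertrophic and WT resting the 2 calls stood (13.4%) but 0 had an adjusted P under 0.05 in limma (2.2%). The block changed no other count of calls by over 1.5 times.

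Leaving out 1 library gave 0 calls between WT proliferative and WT resting, where 4.65% to 7.4% of all genes were called. It gave 0 to 1 between WT hypertrophic and WT proliferative (6.02% to 18.4%) and 1 to 6 between WT hypertrophic and WT resting (10.9% to 19.2%). Between *aadd* and WT resting it gave 0 to 1 (5% to 9.12%) and between *aadd* and WT proliferative 0 to 5 (13.2% to 18.6%). Across the 4 groups it gave 0 to 7 (5.74% to 28.1%). The 4 calls between pairs of groups were each refitted under 14 alternatives, and of these 56 fits 37 kept the call and 19 lost it, with 6 lost for *Espl1*, 5 for *Ndc80*, 8 for *Cenpf* and 0 for *Ncapd2*. *Cdc25c*, not called, was called under 4 of 14 between WT hypertrophic and WT resting and under 2 between WT hypertrophic and WT proliferative. With 3 libraries a group and reads estimated rather than counted, a difference under the call is not shown to be absent.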
